A study of Mus musculus with 6 samples.

Results

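The aminoacyl-tRNA synthetases are the enzymes that load each amino acid onto its tRNA, the step that sets the meaning of the genetic code. The set described here holds the 35 rows of the deposited table, out of 54966, whose gene name is one of 19 cytosolic or 16 mitochondrial synthetases. Members were found by name, the rule itself using no measured value, although the set was proposed with earlier results of these data known. Symbols ending in 2 mark the mitochondrial enzymes. RNA was sequenced from macrophages sorted from injured skeletal muscle of wild-type mice, 3 libraries from young and 3 from old animals. The cells were positive for CD11b and F4/80 and low for Ly6C, and all 6 libraries were taken 3 days after injury with barium chloride, which destroys fibres and starts regeneration. The labels call these pro-repair macrophages, and give neither an age in weeks or months nor the number of animals. Each p-value therefore reflects variation among libraries only, part of which may be technical. The comparison of old with young asks which transcripts differ with age in repair macrophages.

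Cytosolic synthetases charge tRNA for the ribosomes of the cytoplasm, and several of them sit together in the multi-tRNA synthetase complex. The mitochondrial enzymes are also encoded in the nucleus and are imported to charge the tRNAs made in mitochondria, where a small set of respiratory chain proteins is translated. Kars and Gars encode both the cytosolic and the mitochondrial form of their enzyme, so their place among the cytosolic members follows the symbol and not the full role. Transcription of many cytosolic synthetase genes is raised by ATF4, the transcription factor of the integrated stress response, as shown in mouse fibroblasts.

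Values are FPKM, that is, fragments normalised to gene length and library size. Fragments recovered from the FPKM steps totalled 16540053 to 19396200 per library. The library size implied by the FPKM steps was 18495984, 16817289 and 17031234 fragments in young and 17877461, 17227703 and 18334793 in old. It lay above the recovered total in each young library and below it in each old one. The cause, and its part in the changes between groups, was not tested. Adgre1, which encodes F4/80, lay between 347.4 and 381.7 FPKM in young and 430.2 and 476.3 in old. Itgam, which encodes CD11b, lay between 34.31 and 36.87 in young and 41.91 and 50.87 in old. Both were higher in every old library than in any young one. Their log2 changes were 0.30 and 0.39 (limma adjusted p = 0.2 and 0.169), and their part in the synthetase values was not tested. Ly6c2, of the Ly6C antigen, had 3.197, 2.322 and 1.307 FPKM in young and 7.676, 2.457 and 6.987 in old, with overlapping groups. Its log2 change was 0.97 (limma adjusted p = 0.305), and its part in the synthetase values was not tested. The 10 macrophage identity markers summed to 15280 to 17750 FPKM in young and 15360 to 18840 in old. Lyz2 alone had a mean of 10100 FPKM over the 6 libraries, so these sums mostly reflect that gene. Ly6C-high monocyte markers (5 of 7 reaching a mean of 1 FPKM) summed to 131.4 to 168.5 FPKM in young and 148.8 to 231.8 in old, with overlapping groups. Sums of the other marker lists were smaller but did not overlap between groups for 5 of them. Muscle fibre and myoblast markers (5 of 10 reaching a mean of 1 FPKM) summed to 14.9 to 19.53 FPKM in young and 5.944 to 10.12 in old, and fibroblast markers (1 of 6) to 2.961 to 5.708 and 1.067 to 2.312. B and plasma cell markers (2 of 7) summed to 28.07 to 61.57 and 19.59 to 22.62, and T and NK cell markers (1 of 8, Cd3e, Cd3g and Ncr1 at 0 in all libraries) to 4.478 to 13.13 and 2.69 to 3.871. Neutrophil markers (4 of 7, Ly6g at 0) summed to 39.82 to 45.23 in young and 45.99 to 64.39 in old. The part of these cells in the synthetase values was not tested. In such bulk samples, fewer cells of a type and less RNA per cell cannot be told apart.

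All 19 cytosolic synthetases were detected in every library, with means over the 6 libraries from 3.02 to 73.7 FPKM and a median of 11.6. Nars, the asparaginyl-tRNA synthetase, stood alone at the top. Young replicates 1, 2 and 3 had 74.55, 70.96 and 85.57 FPKM, old replicates 67.63, 74.01 and 69.32, and the lowest of these lay above the highest library of any other member. It made up 24.05% to 28.95% of the summed FPKM of the cytosolic set. Rars, the arginyl enzyme, came next with 30.05, 19.8 and 22.59 FPKM in young and 26.74, 24.46 and 25.51 in old, and its young libraries were the most spread of the cytosolic set (coefficient of variation 21.9%). Hars, the histidyl enzyme, followed at 18.05 to 21.47 FPKM over the 6 libraries. The 3 lowest were Tars (threonyl), Yars (tyrosyl) and Cars (cysteinyl). Tars had 6.432, 5.935 and 5.721 FPKM in young and 5.621, 6.384 and 6.137 in old. Yars had 3.775, 3.672 and 3.448 in young and 3.577, 3.585 and 2.753 in old, and Cars 3.523, 3.089 and 2.64 in young and 3.025, 2.901 and 2.925 in old. The order between these extremes was loose. Of the 18 neighbouring pairs in the cytosolic order, 2 had ranges over the 6 libraries that did not overlap, Nars above Rars and Tars above Yars.

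Mitochondrial synthetases were lower, with means from 0.214 to 20.6 FPKM and a median of 2.62. Lars2, the mitochondrial leucyl enzyme, was the highest, with 19.99, 21.18 and 22.77 FPKM in young and 15.49, 24.84 and 19.14 in old. It made up 30.16% to 39.38% of the summed mitochondrial FPKM. Its young libraries lay close together, while old replicates 1 and 2 were the lowest and the highest of all 6. Iars2 (isoleucyl, 4.48 to 5.337 FPKM) and Hars2 (histidyl, 4.233 to 5.725) came next, and the range of Hars2 overlapped those of Rars2, Tars2 and Sars2. At the bottom were Nars2, Mars2 and Pars2, for asparagine, methionine and proline. Nars2 had 0.7993, 0.7937 and 0.6321 FPKM in young and 0.562, 0.5665 and 0.7515 in old. Mars2 had 0.3638, 0.2948 and 0.2547 in young and 0.2774, 0.2467 and 0.2608 in old. Pars2 had 0.1573, 0.173 and 0.3226 in young and 0.1627, 0.1501 and 0.3173 in old, which rested on 8 to 18 fragments per library. These 3 and Ears2, the glutamyl enzyme, had a mean below 1 FPKM. Of the 15 neighbouring pairs in the mitochondrial order, 4 had ranges that did not overlap: Lars2 above Iars2, Fars2 above Vars2, Wars2 above Ears2 and Nars2 above Mars2.

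**Figure D1:**
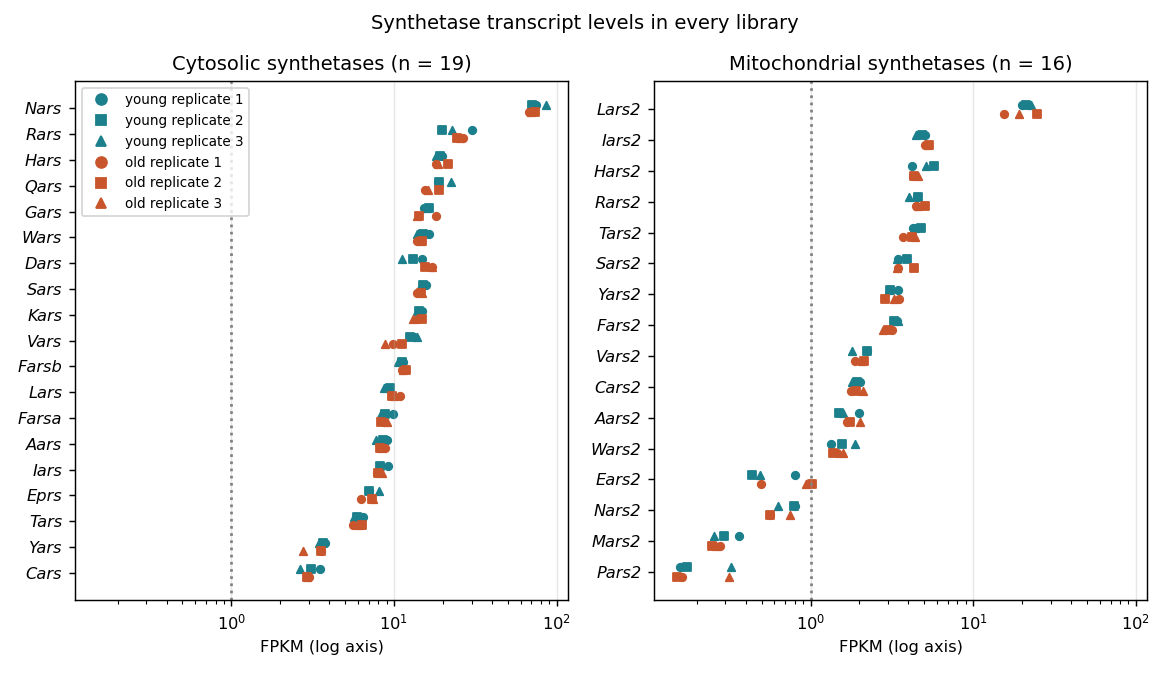
FPKM (log axis) of the 19 cytosolic and 16 mitochondrial synthetases, ordered by mean. Each symbol is 1 library, coloured by group and shaped by replicate number, and the dotted line marks 1 FPKM. Nars stands above the other cytosolic members, Lars2 above the other mitochondrial ones, and young and old symbols of most genes lie among each other.

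Set side by side by amino acid, the cytosolic transcript was the more abundant one in every library for 14 of 16 pairings, which cover 15 amino acids. The cytosolic phenylalanyl enzyme has an alpha and a beta subunit, Farsa and Farsb, and each was paired with Fars2. Eprs, a fused enzyme for glutamate and proline, was paired with Ears2 and with Pars2. The widest gap by FPKM was for asparagine, with Nars 89.4 to 135 times as high as Nars2 per kilobase. For tryptophan Wars was 7.35 to 12.4 times as high as Wars2, and for valine Vars was 4.26 to 7.72 times as high as Vars2. For tyrosine the order varied between libraries, with Yars at 0.846 to 1.25 times Yars2 by FPKM. Leucine was the exception, with Lars at 0.382 to 0.703 times Lars2, so the mitochondrial gene had the higher FPKM in all 6 libraries. Some paired genes overlap a gene on the other strand: Yars with C77080 (mean 3.95 FPKM), Cars2 with Naxd (5.28) and Iars2 with Rab3gap2 (10.3). Hars and Hars2 overlap each other. Without strand information, fragments of such genes cannot be told apart where exons overlap.

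These ratios depend on the gene length used, since the FPKM count all annotated exons. Per kilobase of the longest coding transcript, a setting chosen after the data were seen, the cytosolic transcript was higher in 13 of 16 pairings. Cars then had 0.845 times the level of Cars2 and Tars 0.968 times that of Tars2, while Lars had 0.223 times that of Lars2. Yars then had 1.96 times the level of Yars2, against 1.08 by mean FPKM, and Farsb 1.69 times that of Fars2, against 3.54. The widest gap moved to proline, with Eprs at 122 times Pars2, against 33.6 by mean FPKM, while Nars had 92.4 times the level of Nars2. The main Lars2 transcript of 3894 bases shares a stretch of 52 bases, at positions 3278 to 3329, with Gm15564, annotated as an antisense RNA gene on chromosome 16, which had 0 to 4 fragments per library. Gm23935, annotated as a miRNA gene, had 12100, 11380 and 13380 FPKM in young and 9194, 15090 and 11470 in old. Like Lars2, it was lowest in old replicate 1 and highest in old replicate 2. No word of 14 bases of it occurs in that Lars2 transcript, but this does not show which fragments were counted for Lars2. Both features were chosen after their values were seen. Their part in the Lars2 level was not tested.

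**Figure D2:**
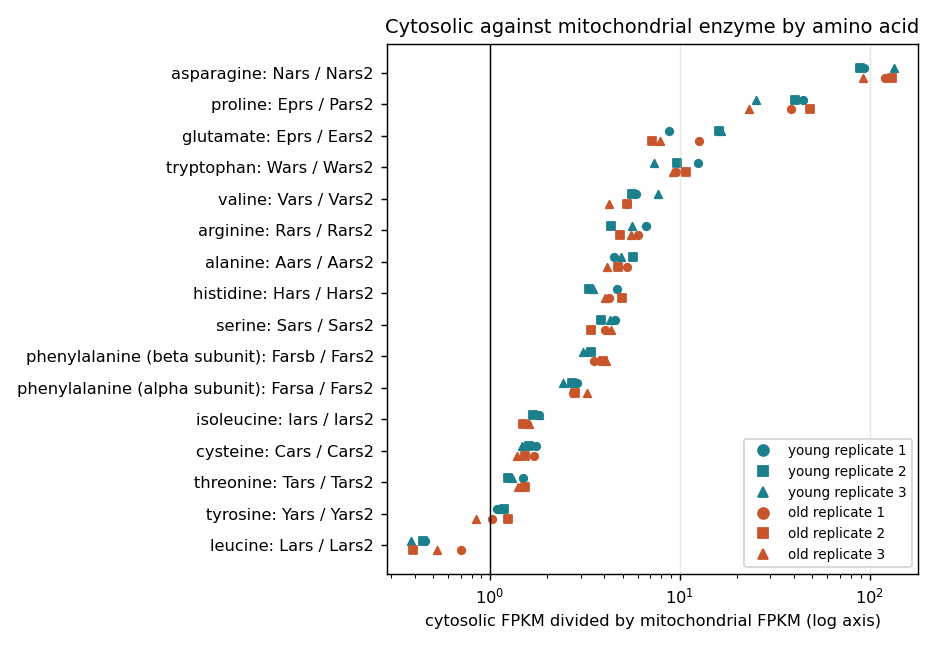
Ratio of cytosolic to mitochondrial FPKM (log axis) for each of 16 pairings, with 1 symbol per library. The line marks equal levels. Symbols for leucine lie left of the line in all 6 libraries, those for tyrosine straddle it, and the other 14 pairings lie to its right.

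Summed synthetase levels of old and young macrophages overlapped. The summed cytosolic FPKM was 302.7, 281.4 and 295.6 in young and 281.2, 290.7 and 278.5 in old, or 293.2 ± 10.8 and 283.5 ± 6.41 (SD, n = 3 per group). The summed mitochondrial FPKM was 58.15, 60.27 and 59.44 in young and 51.36, 63.08 and 57.48 in old, or 59.29 ± 1.07 and 57.31 ± 5.86. Without Lars2 the mitochondrial sum was 37.97 ± 1.22 in young and 37.49 ± 1.4 in old. The cytosolic sum was 4.949 ± 0.268 times the mitochondrial one in young and 4.976 ± 0.448 times in old.

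Tests covered the 31 members whose mean reached 1 FPKM. Of these, 0 passed limma with Benjamini-Hochberg adjustment over all 11108 tested genes, where 4 genes or 0.0360% passed. The smallest adjusted p among members was 0.175. The fit on recovered fragments (limma voom) also called 0 members. At an unadjusted p under 0.05 there were 3 members, 2 higher and 1 lower in old, or 9.68% of those tested, against 15.0% of all tested genes (8.84% higher and 6.18% lower). The groups did not overlap for 4 members, 2 in each direction, or 12.9%, against 20.9% of all tested genes (12.3% higher and 8.59% lower). Both shares rest on few genes, 3 and 4, and their difference from the shares of all tested genes was not tested. The log2 change was below 0 for 18 of 31 members and for 46.9% of all tested genes. The median log2 change on the log2(FPKM + 1) scale, which understates changes of low genes, was -0.05 over the 19 cytosolic members and -0.01 over the 12 tested mitochondrial ones, beside 0.01 over all tested genes.

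The intervals show how large an unseen change could be on the log2(FPKM + 1) scale. The 95% limma interval of the log2 change lay within 0.5 of 0 for 29 of 31 members (93.5%), as it did for 74.1% of all tested genes. The exceptions were Vars and Dars. All 12 tested mitochondrial members were inside this limit, and Lars2 came nearest to it with an interval from -0.49 to 0.25. On this scale a change of 0.5 is a larger fold change in FPKM for a low gene, so the limit is looser for low members. The spread between libraries was small for most members, with a median coefficient of variation of 7.03% in young and 5.67% in old for cytosolic members, and 7.13% and 8.01% for mitochondrial ones.

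**Figure D3:**
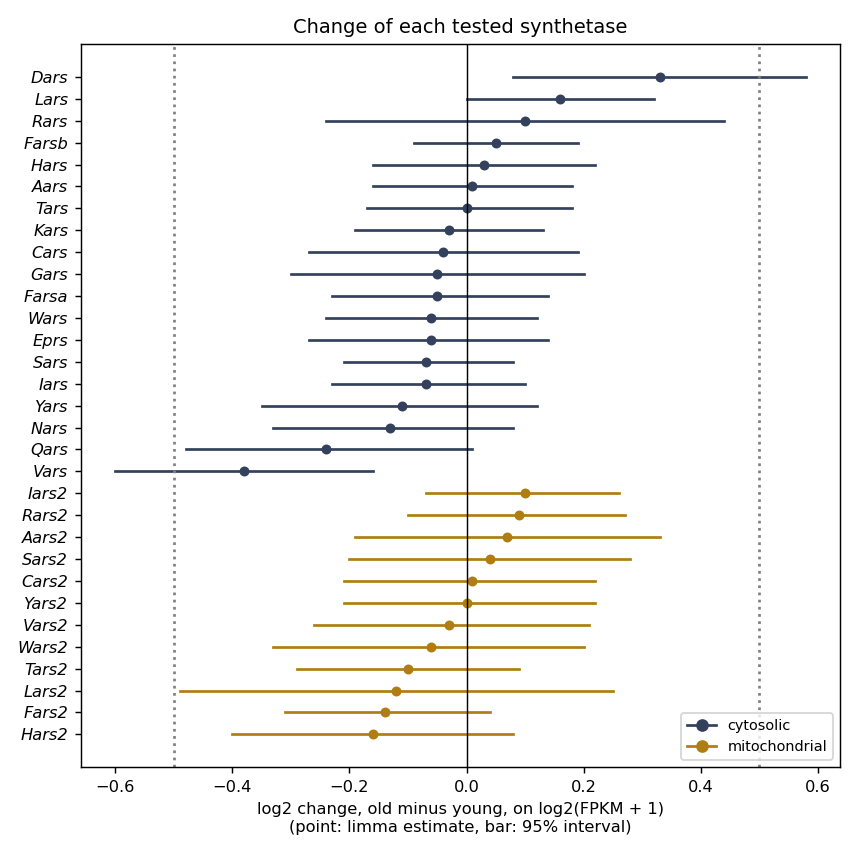
Log2 change, old minus young, on the log2(FPKM + 1) scale for the 31 tested synthetases, with the limma estimate as a point and its 95% interval as a bar. Dotted lines mark 0.5 in each direction. Vars at -0.38 and Dars at 0.33 lie farthest from 0, and the bars of the other 29 stay within the dotted lines.

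The member with the smallest p was Vars, the cytosolic valyl enzyme (chromosome 17, 35000987 to 35016322, GRCm38). It had 13.22, 12.56 and 13.87 FPKM in young and 9.865, 11.24 and 8.802 in old. Every old library lay below every young one. The means were 13.2 ± 0.654 and 9.97 ± 1.22, a ratio of 0.754. Its log2 change, -0.38 with a standard error of 0.0933, did not pass (limma adjusted p = 0.175). Its mitochondrial counterpart Vars2 had 2.238, 2.233 and 1.796 FPKM in young and 1.875, 2.137 and 2.068 in old, and these groups overlapped.

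Dars, the aspartyl enzyme and a member of the multi-tRNA synthetase complex (chromosome 1, 128363707 to 128417368), had the opposite order. It had 14.92, 13.11 and 11.18 FPKM in young and 17.24, 15.41 and 17.13 in old. The lowest old library was above the highest young one by a narrow margin. The means were 13.1 ± 1.87 and 16.6 ± 1.03, a ratio of 1.27. Its log2 change was 0.33 with a standard error of 0.107 (limma adjusted p = 0.241).

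Lars, the cytosolic leucyl enzyme, also belongs to that complex and is known as a leucine sensor upstream of mTORC1 (chromosome 18, 42202298 to 42262194). It had 9.03, 9.438 and 8.695 FPKM in young and 10.89, 9.785 and 10.04 in old, with no overlap. The means were 9.05 ± 0.372 and 10.2 ± 0.581, and the log2 change was 0.16 with a standard error of 0.0675 (limma adjusted p = 0.331). Rps19-ps4, a pseudogene on the other strand, overlaps it with a mean of 1.35 FPKM. Its unadjusted p of 0.0493 lay at the edge of the limit used for counting. Qars, the glutaminyl enzyme of the same complex, had 18.75, 19.02 and 22.51 FPKM in young and 15.58, 18.93 and 16.23 in old. Young replicate 3 was the highest, and old replicate 2, at 18.93, lay above the lowest young library (log2 change -0.24, standard error 0.102, limma adjusted p = 0.342). The 7 genes of the member list counted in this complex stood on both sides of 0, with 3 above it and 4 below.

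Among mitochondrial members only Fars2, the phenylalanyl enzyme, had groups that did not overlap, or 8.33% of those tested, against 20.9% of all tested genes. It had 3.424, 3.259 and 3.453 FPKM in young and 3.154, 2.99 and 2.79 in old, means of 3.38 ± 0.105 and 2.98 ± 0.182 (log2 change -0.14, standard error 0.0738, limma adjusted p = 0.433). Lyrm4, on the opposite strand of the same locus, had a mean of 1.65 FPKM, and without strand information their fragments cannot be told apart where exons overlap. Ears2, untested because of its low level, had 0.7976, 0.4386 and 0.4901 FPKM in young and 0.4994, 1.025 and 0.9422 in old. Its groups overlapped, and fitted without the filter its log2 change was 0.20 (limma adjusted p = 0.73). It lies across Ubfd1, with a mean of 5.88 FPKM, on the other strand.

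**Figure D4:**
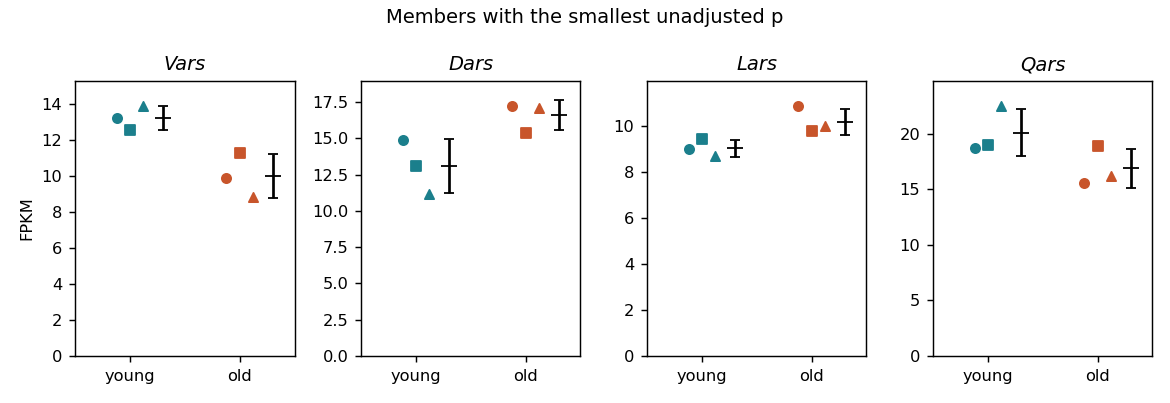
FPKM of Vars, Dars, Lars and Qars in each library, on linear axes from 0. Symbols are libraries, shaped by replicate number, and black bars give the mean ± SD of 3 libraries. Vars is lower and Dars and Lars are higher in every old library than in any young one, while old replicate 2 overlaps the young libraries for Qars.

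Wars, the tryptophanyl enzyme, is the synthetase best known for its induction by interferon gamma in human cells. It had 16.42, 15.16 and 13.8 FPKM in young and 13.94, 14.77 and 14.62 in old, with overlapping groups and a log2 change of -0.06 (95% interval -0.24 to 0.12, limma adjusted p = 0.757). Of 10 interferon gamma response genes 8 were tested, 0 passed, 4 lay above and 4 below 0, and the median log2 change was -0.01. Irf1, a transcription factor of that response, had 23.44, 30.45 and 27 FPKM in young and 35.82, 19.34 and 21.26 in old, with overlapping groups. Ciita, the activator of MHC class II genes, had the smallest p of the list, also with overlapping groups (log2 change -0.67, limma adjusted p = 0.309). The log2 change was 0.10 for Gbp5 and -0.06 for Gbp2, which encode guanylate-binding proteins.

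Cytosolic synthetase genes were next divided by their known control. The 12 members reported as ATF4 targets had a median log2 change of -0.06, with 3 above and 9 below 0, and the other 7 had a median of 0.03, with 4 above and 3 below. One unadjusted p under 0.05 in each direction (Lars and Vars) fell in the first group and 1 (Dars, higher) in the second. These were 16.7% and 14.3% of the genes in each group, against 15.0% of all tested genes. RefSeq promoters on GRCm38.p6, from 250 bases before to 50 after the start, were at hand for 26 of the 35 members. They were searched on both strands for TGATGNAA, the core of the C/EBP-ATF response element that ATF4 binds. It was found in 5 of 12 cytosolic promoters (41.667%), all 5 of them among the 7 ATF4-target promoters, against 3.969% of all 32851 promoters in the table. It was found in 0 of 15 mitochondrial promoters. At a share of 3.969% a count of 0 in 15 is likely, so it shows no difference from all promoters. The palindromic core of the motif of NRF1, a factor known for driving nuclear genes of mitochondrial proteins, was in 0 of the 27 synthetase promoters and in 0.971% of all. A word this rare was unlikely to occur in 27 promoters, so the count of 0 cannot show whether NRF1 acts on these genes. A match describes the letters and shows no binding. Members without a promoter at hand, among them the ATF4 targets Vars, Lars, Nars, Cars and Wars, were not searched and may hold either motif. The 5 promoters that held the element are shown because, among those searched, they carry the stress response motif. Each stretch runs from 130 bases before to 30 after the start on the gene's strand, with the motif in capitals, and positions are chr8:111033712-111033871 (plus strand), chr6:55037871-55038030 (plus), chr13:49682000-49682159 (plus), chr15:11399629-11399788 (minus) and chr4:129189773-129189932 (plus) in the order given.
Aars: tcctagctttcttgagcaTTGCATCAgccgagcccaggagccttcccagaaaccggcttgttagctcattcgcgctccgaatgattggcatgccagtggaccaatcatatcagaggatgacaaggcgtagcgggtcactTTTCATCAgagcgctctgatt
Gars: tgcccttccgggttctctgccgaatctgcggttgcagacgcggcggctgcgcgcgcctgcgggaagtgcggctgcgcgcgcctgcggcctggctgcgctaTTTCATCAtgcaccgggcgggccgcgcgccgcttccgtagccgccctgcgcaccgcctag
Iars: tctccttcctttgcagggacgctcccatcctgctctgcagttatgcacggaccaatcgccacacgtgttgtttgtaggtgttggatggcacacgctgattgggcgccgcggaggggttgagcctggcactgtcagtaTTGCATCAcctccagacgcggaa
Tars: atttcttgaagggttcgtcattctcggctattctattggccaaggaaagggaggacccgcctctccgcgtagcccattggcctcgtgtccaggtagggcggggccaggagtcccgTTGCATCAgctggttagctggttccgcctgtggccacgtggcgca
Yars: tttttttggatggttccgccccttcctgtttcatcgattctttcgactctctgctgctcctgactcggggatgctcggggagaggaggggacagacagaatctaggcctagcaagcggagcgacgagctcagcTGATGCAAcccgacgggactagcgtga

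Aars held the motif at 2 places, 112 bases before and 9 bases after the start. In Gars and Tars it lay 30 and 15 bases before the start, and in Iars and Yars 7 and 3 bases after it. The motif read along the gene's strand in Yars and along the opposite strand in the other promoters. For all 5 genes the old and young libraries overlapped. Aars, the alanyl enzyme, had 8.999, 8.52 and 7.787 FPKM in young and 8.865, 8.261 and 8.362 in old, a log2 change of 0.01 (95% interval -0.16 to 0.18). Gars, the glycyl enzyme, had 15.27, 16.47 and 16.06 in young and 18.15, 14.31 and 13.92 in old (-0.05, interval -0.30 to 0.20). The log2 change was -0.07 for Iars (isoleucyl), 0.00 for Tars and -0.11 for Yars.

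Integrated stress response genes had mixed values. Of 17 genes 15 were tested, 0 passed, 6 lay above and 9 below 0, and the median log2 change was -0.04. At an unadjusted p under 0.05 there were 2 higher and 3 lower, or 33.3% of those tested, against 15.0% of all tested genes (8.84% higher and 6.18% lower). Atf4 had 146.8, 134.8 and 139.8 FPKM in young and 172.2, 144.5 and 145.3 in old, with overlapping groups (log2 change 0.13, limma adjusted p = 0.556). Ddit3, a transcription factor of the response (CHOP), had 11.65, 11.73 and 11.11 in young and 16.13, 12.71 and 15.06 in old, with no overlap (0.32, limma adjusted p = 0.213). Ddit4, an inhibitor of mTORC1, had 14.08, 15.96 and 18.9 in young and 9.498, 9.096 and 14.26 in old, with an overlap between young replicate 1 and old replicate 3 (-0.55, limma adjusted p = 0.238). Of the 4 eIF2 alpha kinase genes 1 lay above 0, Eif2ak2 (the double-stranded RNA sensor PKR) at 0.26. The other three lay below 0, with -0.21 for Eif2ak1 (the heme-regulated kinase), -0.19 for Eif2ak3 (PERK, the kinase of the endoplasmic reticulum) and -0.12 for Eif2ak4 (GCN2, which senses uncharged tRNA).

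Amino acid supply, the step that feeds the synthetases, had 11 tested genes of 16, of which 0 passed, 3 lay above and 8 below 0 (median -0.11). The groups did not overlap for 18.2% of those tested, against 20.9% of all tested genes. Slc7a11, the cystine importer, had 1.32, 1.456 and 1.695 FPKM in young and 0.912, 0.6296 and 0.6464 in old, with no overlap (log2 change -0.53, limma adjusted p = 0.172). Shmt2, which makes glycine from serine in mitochondria, had 9.512, 8.32 and 8.234 in young and 7.323, 7.823 and 6.351 in old (-0.25, limma adjusted p = 0.287). The amino acid transporter genes Slc1a5 (-0.22) and Slc3a2 (0.15) followed by p. Asns, the asparagine synthetase that makes the substrate of Nars, was low, with 0.6523, 0.3696 and 0.1932 FPKM in young and 0.3477, 0.7004 and 0.5783 in old. Nars, by contrast, was the most abundant synthetase in each of these libraries.

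The scaffold proteins of the multi-tRNA synthetase complex were all tested, and 0 of 3 passed. Aimp2 had 3.53, 3.343 and 3.088 FPKM in young and 4.024, 3.755 and 4.155 in old (log2 change 0.20, limma adjusted p = 0.285), and Aimp1 had 6.908, 7.279 and 7.67 in young and 6.787, 6.431 and 6.452 in old (-0.13, limma adjusted p = 0.397). The groups did not overlap for either, in opposite directions, which is 66.7% of the 3 genes, against 20.9% of all tested genes. Eef1e1, the third scaffold gene, had 4.1, 3.012 and 2.812 in young and 4.036, 3.457 and 4.17 in old, and these overlapped.

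Of the 4 genes for charging partners of the mitochondrial enzymes, 0 passed and 1 lay above 0. Gatb, a subunit of the amidotransferase that completes glutaminyl-tRNA in mitochondria, had 3.144, 2.559 and 2.486 FPKM in young and 3.409, 3.281 and 3.59 in old (log2 change 0.25, limma adjusted p = 0.283), with no overlap. The other subunit genes Qrsl1 (-0.09) and Gatc (-0.08) and the formyltransferase gene Mtfmt (-0.05) had overlapping groups. Separated groups were thus found for 25% of these genes, against 20.9% of all tested genes. Of 9 mitochondrial translation factor genes 0 passed, with 5 above and 4 below 0 and a median of 0.01. Those of smallest p were the release factor gene Mtrf1 (0.18), the ribosome recycling gene Gfm2 (0.16), the elongation factor gene Tufm (-0.15) and the initiation factor gene Mtif2 (-0.13).

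Genes that finish the tRNA itself did not pass either, 0 of 5, with a median of -0.04. Trnt1, which adds the CCA end to which the amino acid is joined, had 6.971, 6.252 and 6.692 FPKM in young and 6.325, 6.721 and 6.971 in old (log2 change 0.01, 95% interval -0.16 to 0.17). The others were Hsd17b10 (-0.04) and Trmt10c (0.06), of the mitochondrial tRNA-processing and methylating complex, and the 3' end nuclease genes Elac1 (-0.07) and Elac2 (-0.06). Of 5 genes for proofreading of mischarged tRNA and a synthetase paralog, 3 were tested and 0 passed. These were Prorsd1 (-0.30), Dtd1 (-0.22) and Dtd2 (0.09).

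Mars is a synthetase gene outside the member list, so it was not counted among the complex members above. It encodes the cytosolic methionyl enzyme and had 9.335, 7.835 and 7.736 FPKM in young and 8.007, 7.851 and 7.776 in old (log2 change -0.06, limma adjusted p = 0.759). Its groups overlapped.

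Libraries within a group were not alike in every member. Of the 19 cytosolic members 9 had their highest value in young replicate 1, among them Wars and Iars, and 7 had their lowest in young replicate 3, among them Dars and Wars. Young replicate 3 also held the highest value of 4, Nars, Qars, Vars and Eprs. In old, replicate 1 was lowest for 6 cytosolic members, Nars and Qars included, and highest for Dars, Lars and Gars. Of the 16 mitochondrial members 5 were highest in old replicate 2. Per member, the highest of the 6 libraries was 1.12 to 1.58 times the lowest for cytosolic and 1.19 to 1.6 times for tested mitochondrial members.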

How the data were processed

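The authors deposited 1 table of FPKM per gene for 6 libraries. The submitters' processing notes name GRCm38.p6 as build. Not given in the sources used here are the aligner, counter, strandedness and annotation release. Coordinates, lengths and overlaps came from GENCODE release M21 (GRCm38), which held 98.99% of identifiers. FPKM multiplied by exon-union length gave whole fragments (tolerance 0.02, multiples below 200) in 97.5% to 97.6% of values per library. Where a symbol had 2 rows (Ddit3), the higher was used.

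Old was compared with young by limma 3.58.1 (R 4.3.3) with a mean-variance trend on log2(FPKM + 1), for the 11108 genes whose mean reached 1 FPKM. Tests were two-sided with Benjamini-Hochberg adjustment and a threshold of 0.05, and the fit was tested on simulated data. Lists were described by counts and medians, with no set test. Members and lists were chosen with earlier results of these data known. Members with an unadjusted p under 0.05 or separated groups, the 3 highest and lowest per compartment, Wars, and up to 4 genes of smallest p per pathway list were given in full or by change, with fixed extra genes; others by range. A few list genes are not reported here. Alternatives were other pseudocounts, filters, scalings, moderation, array weights, a replicate block and each library left out. Chosen after seeing the data were limma voom on recovered fragments and the longest coding transcript as length. Python 3.11.15 with pandas 2.3.3, numpy 2.4.6 and matplotlib 3.10.9 was used.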

Additional observations from a re-analysis of the deposited data

How the results depend on the processing

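Under all 18 alternatives 0 synthetases passed the threshold. Vars was lower (log2 change -0.46 to -0.30) and Dars higher (0.23 to 0.42) in old under all 18. Vars stayed at an unadjusted p under 0.05 in 18 of them, Dars in 15, and Lars, at the edge in the fit reported, in 5. With 1 library left out, the count of members at an unadjusted p under 0.05 ranged from 1 (without old replicate 1 or 3) to 5 (without young replicate 1 or old replicate 2), and that of members with groups that do not overlap from 5 to 10 (10 without young replicate 1, 9 without young replicate 3, 8 without old replicate 1, 7 without old replicate 2), where fewer libraries make separation easier. With all libraries kept, that count was 3 to 5 except after rescaling to TPM, which gave 8 such members and medians of -0.11 for cytosolic and -0.070 for mitochondrial members, beside -0.044 for all tested genes. The cause was not tested. Shares of all tested genes with an unadjusted p under 0.05 or separated groups were not computed for the alternatives. These counts of members therefore have no background beside them.

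The count over all genes, 4, was 0 under pseudocounts of 0.1 and 0.01, with no filter, with a 5 FPKM minimum and with the replicate block. It was 50 with array weights, 41 with limma voom on recovered fragments, and 0 to 15 without 1 library (15 without young replicate 1). Whether replicate numbers pair the libraries cannot be told from these values. Deviations of same-numbered libraries correlated weakly, at 0.0321, 0.0542 and 0.0415, yet every library correlated best with its own number. The block called 0 members.

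Members whose sign turned had log2 changes between -0.12 and 0.10 in the fit reported. With TPM the changes were -0.048 for Aars, -0.0039 for Farsb, -0.029 for Hars, -0.055 for Tars, -0.044 for Cars2, -0.013 for Sars2 and -0.052 for Yars2. Quantile normalization gave -0.012 for Tars, and array weights -0.0025 for Aars and -0.029 for Sars2. Without 1 library in turn the changes ranged over -0.12 to 0.034 for Cars, -0.095 to 0.017 for Farsa, -0.097 to 0.0096 for Vars2, -0.028 to 0.26 for Rars, -0.031 to 0.048 for Tars, -0.049 to 0.065 for Yars2, -0.040 to 0.054 for Aars, -0.040 to 0.073 for Hars, -0.038 to 0.044 for Cars2, -0.14 to 0.014 for Wars2, -0.10 to 0.0021 for Eprs, -0.29 to 0.034 for Lars2, -0.052 to 0.091 for Sars2, -0.16 to 0.017 for Gars and -0.073 to 0.013 for Kars. The cause was not tested. Precision is limited by 3 libraries per group and, for Pars2, Ears2, Mars2 and Nars2, by few fragments.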
